A study of Mus musculus with 6 samples.

Results

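The genes described here are 33 chaperones, disulfide isomerases, degradation factors and stress sensors of the endoplasmic reticulum (ER), chosen by gene symbol from the 47643 genes of the deposited count table. All 33 were found as single genes and all 33 passed the filter on low counts, so no member was left out. They were measured by bulk RNA sequencing of liver tumors from FVB/N mice that carry LAP-tTA and tetO-MYC, a pair of transgenes in which a liver promoter drives a doxycycline-repressed activator and thereby a MYC oncogene. Doxycycline at 100 mg/L in the drinking water kept MYC off up to the age of 4 weeks. After 8 weeks with MYC on, vehicle or GSK3326595 at 50 mg/kg/day followed for 2 weeks. GSK3326595 inhibits PRMT5, a methyltransferase that places symmetric dimethyl groups on arginine. All 6 libraries therefore come from MYC-on tumors, 3 with vehicle and 3 with GSK3326595, and no library of normal liver or of MYC-off mice was analysed here. Nothing in the labels ties each replicate to an animal of its own, and the p-values cover the spread between these samples, which may be technical.

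Secreted and membrane proteins enter the ER through the Sec61 channel, fold there with the help of Hspa5 (BiP), lectin chaperones and disulfide isomerases, and are sent back to the cytosol for degradation if they do not fold. When unfolded protein accumulates, 3 sensors in the ER membrane start the unfolded protein response (UPR): Ern1 (IRE1) splices the Xbp1 mRNA, Atf6 is cut to release a transcription factor, and Eif2ak3 (PERK) phosphorylates a translation initiation factor and raises Atf4. Hepatocytes secrete most plasma proteins and are rich in ER.

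Library totals were 25814339 to 33621083 expected counts, and the lowest count of any member in any library was 77. GSK3326595 replicate 2 stood apart on the first principal component of all genes (38.1% of the variance), at 103.1 against -50.2 to 9.37 for the other 5 libraries. Vehicle was split there too, with replicates 1 and 2 at -50.2 and -49.5. Vehicle replicate 3, at -7.52, lay beside GSK3326595 replicates 1 and 3 (-5.33 and 9.37). Hepatocyte markers were abundant in every library, as the label liver tumor implies: Alb ranged from 3157 to 11944 CPM (counts scaled to a common library size by TMM), and Hnf4a from 411.6 to 541.1 CPM. The summed level of 10 hepatocyte markers was 52169, 64558 and 24740 CPM in vehicle and 41315, 31147 and 12145 CPM in GSK3326595. In bulk tissue, fewer cells of a type and less RNA per cell cannot be told apart.

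Most of the ER genes lay lower in GSK3326595 than in vehicle, but by small amounts and with much spread between the treated tumors. Of the 33 members, 28 had a log2 difference below 0 and 5 above, where a positive value means higher in GSK3326595; over all 17012 genes tested, 46.9% lay below 0. The median of the members was -0.24, against 0.03 over all genes tested. No member passed the adjusted threshold of 0.05 in edgeR's quasi-likelihood test (smallest adjusted p = 0.522, for Dnajc3), in a comparison where 0.0% of all genes passed. At an unadjusted p under 0.05 there were 3 members lower and 0 higher, against 3.81% of all genes lower and 5.45% higher (9.26% in either direction). DESeq2 called 0 members, and 1.09% of all genes higher and 0.588% lower. The groups did not overlap in 3 members, all lower, against 7.66% of all genes lower and 6.72% higher.

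The 3 treated libraries were not alike, and vehicle replicate 3 lay below the other vehicle libraries. By replicate, the mean log2(CPM + 0.1) of the members was 7.32, 7.28 and 7.03 in vehicle and 7.27, 6.71 and 6.71 in GSK3326595. GSK3326595 replicate 1 had 21 members above the vehicle mean and 12 below it (median difference of 0.08 in log2(CPM + 0.1)). Replicate 2 had 28 members below that mean (median -0.35) and replicate 3 had 31 (median -0.41). The same medians over all genes tested were -0.03, 0.02 and 0.01. Replicate 2 held the lowest value of 18 members and replicate 3 that of 14, which leaves Fkbp2, lowest in vehicle replicate 2. Over all genes, 22.7% were lowest in GSK3326595 replicate 2 and 20.5% in replicate 3. Replicate 1 in turn held the highest value of 11 members, against 21.1% of all genes. Summed over the 33 members, vehicle held 10801, 9972 and 9138 CPM and GSK3326595 held 10316, 6917 and 8042 CPM, so the sum of GSK3326595 replicate 1 lay within the vehicle range and the other two sums below it. Without GSK3326595 replicate 1, 32 of 33 members lay below 0, the median was -0.42, and 12 members had an unadjusted p under 0.05, against 10.6% of all genes in that fit. Without GSK3326595 replicate 2, which stood apart over all genes, 23 members lay below 0 and the median was -0.15; without replicate 3 these were 24 and -0.12.

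**Figure D1:**
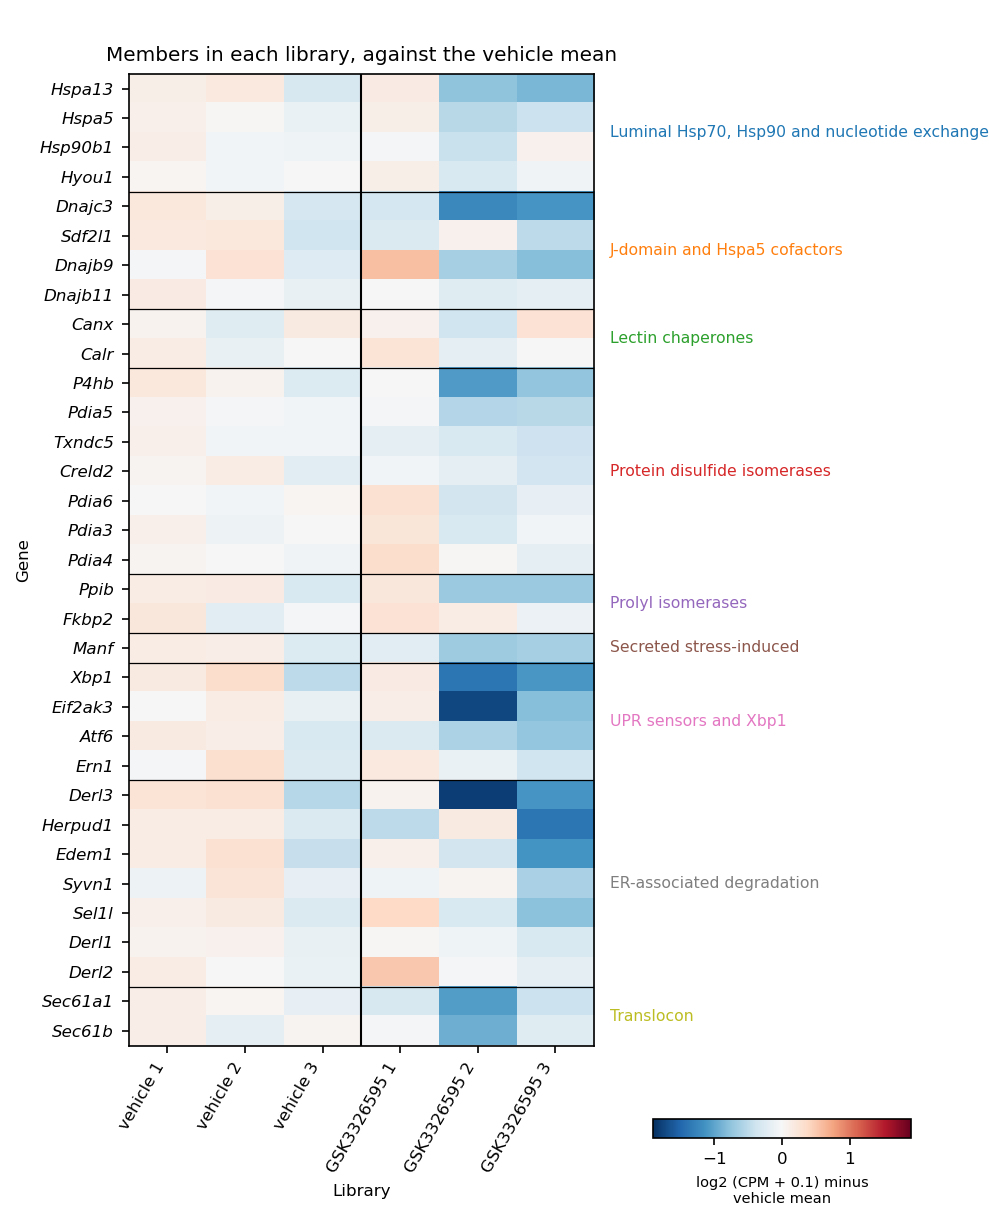
Each row is a gene, grouped by role, and each column a library; colour gives log2(CPM + 0.1) minus the mean of the 3 vehicle libraries, blue for lower and red for higher. GSK3326595 replicate 1 is close to vehicle, with 12 of 33 genes below the vehicle mean, while replicates 2 and 3 have 28 and 31 below it.

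Genes of the UPR share promoter elements that bind the stress transcription factors Atf6 and Xbp1. The members were listed as ER and UPR genes, so a high share of matches among them was likely from the start. The matches are shown as a description and are no independent support for the list. The ER stress element (ERSE) was searched as CCAAT, 9 bases of any kind and CCACG, and the shorter ERSE-II as ATTGG, 1 base of any kind and CCACG, on both strands, in windows from 250 bases before to 50 bases after the annotated start (RefSeq, GRCm38.p6). The table of windows held 27 of the 33 members. An exact ERSE stood in 9 of these 27 genes (33.3%), against 37 of all 27025 genes in the table (0.137%), and an exact ERSE-II in 2 of 27 against 12 of 27025 (0.0444%). The matches are printed 5′ to 3′ in the direction of the element with 6 bases on each side, with the fixed letters of the element in capitals:
Hspa5 ERSE, chr2:34772019-34772049, plus strand: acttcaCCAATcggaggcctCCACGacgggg
Hsp90b1 ERSE, chr10:86705632-86705662, minus strand: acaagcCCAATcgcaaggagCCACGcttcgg
Hsp90b1 ERSE, chr10:86705527-86705557, plus strand: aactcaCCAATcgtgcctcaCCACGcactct
Calr ERSE, chr8:84847069-84847099, plus strand: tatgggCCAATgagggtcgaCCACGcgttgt
Canx ERSE, chr11:50325794-50325824, minus strand: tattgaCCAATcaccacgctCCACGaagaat
Pdia6 ERSE, chr12:17266485-17266515, plus strand: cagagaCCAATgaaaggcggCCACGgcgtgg
Creld2 ERSE, chr15:88819514-88819544, minus strand: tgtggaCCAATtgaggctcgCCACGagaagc
Dnajc3 ERSE, chr14:118937821-118937851, plus strand: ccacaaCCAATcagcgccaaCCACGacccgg
Syvn1 ERSE, chr19:6046526-6046556, plus strand: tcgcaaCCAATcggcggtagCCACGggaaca
Derl3 ERSE, chr10:75893236-75893266, minus strand: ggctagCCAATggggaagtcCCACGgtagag
Herpud1 ERSE-II, chr8:94386371-94386393, plus strand: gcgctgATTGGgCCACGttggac
Dnajb11 ERSE-II, chr16:22857846-22857868, plus strand: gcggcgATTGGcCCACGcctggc

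The ERSE of Hspa5 lies 47 to 65 bases before the RefSeq start and that of Dnajc3 87 to 105 bases before it. The gene spans given further on are from GENCODE and start elsewhere. That of Hspa5 starts at 34771970, which places this element inside the span, and that of Dnajc3 at 118937976. Hsp90b1 carries 2 copies, in opposite directions. The whole 300-base windows of Hspa5 and Dnajc3, in the direction of the gene, show the element in its setting, Hspa5 as the central chaperone of the response and Dnajc3 as the member of smallest p:
Hspa5, chr2:34771840-34772139, plus strand: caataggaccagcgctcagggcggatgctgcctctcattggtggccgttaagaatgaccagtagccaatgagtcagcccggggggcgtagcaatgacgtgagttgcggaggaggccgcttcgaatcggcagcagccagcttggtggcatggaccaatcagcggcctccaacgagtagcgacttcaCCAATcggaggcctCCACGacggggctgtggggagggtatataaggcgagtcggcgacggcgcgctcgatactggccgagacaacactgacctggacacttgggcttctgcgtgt
Dnajc3, chr14:118937682-118937981, plus strand: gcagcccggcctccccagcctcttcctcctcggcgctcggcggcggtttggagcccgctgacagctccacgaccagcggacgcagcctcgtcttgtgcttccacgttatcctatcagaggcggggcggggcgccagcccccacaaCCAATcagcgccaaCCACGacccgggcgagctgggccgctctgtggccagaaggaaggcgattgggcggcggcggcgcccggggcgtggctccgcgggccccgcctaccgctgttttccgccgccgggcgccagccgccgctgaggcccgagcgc

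The 11 members with an exact ERSE or ERSE-II had a median log2 difference of -0.20, with 9 below 0, and spanned -0.85 (Dnajc3) to 0.03 (Calr). The 16 members whose windows held neither had a median of -0.26, with 13 below 0, and spanned -0.65 to 0.13. The ranges of the log2 differences overlapped over most of their length. The median level was 63.5 CPM per kb of merged exons in the members with an element and 21.5 in those whose windows held neither. The 6 members without a window are in neither set: Atf6 (-0.54), Derl1 (-0.12), Hspa13 (-0.43), Hyou1 (-0.07), Manf (-0.50) and Sec61a1 (-0.56). The core of another element, the UPR element (UPRE), searched as TGACGTGG, stood in 1 of the 27 members, Txndc5 (3.70%), against 0.714% of all genes in the table.

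Per length, the members spanned more than 2 orders of magnitude in these tumors, and all 33 lay above the median gene. P4hb, the archetypal protein disulfide isomerase, was the most abundant, with 579 ± 92.6 CPM per kb in vehicle (SD, n = 3), followed by Hsp90b1 (GRP94) with 330 ± 26.5 and Hspa5 with 263 ± 20.3 CPM per kb. Calr stood at 249 ± 23.6 CPM per kb, within the spread of Hspa5. Derl3 was the least abundant, with 4.39 ± 1.304 CPM per kb. Its relatives Derl1 and Derl2 stood at 34.0 ± 2.95 and 6.05 ± 0.562 CPM per kb. The sensors were low among the members: Atf6 had 14.5 ± 2.35, Ern1 12.4 ± 2.57 and Eif2ak3 10.9 ± 1.06 CPM per kb, and the spread of Ern1 overlapped that of each of the other two. Over all 6 libraries, 19 of the 33 members were above the 90th percentile of level per length of the genes tested.

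**Figure D2:**
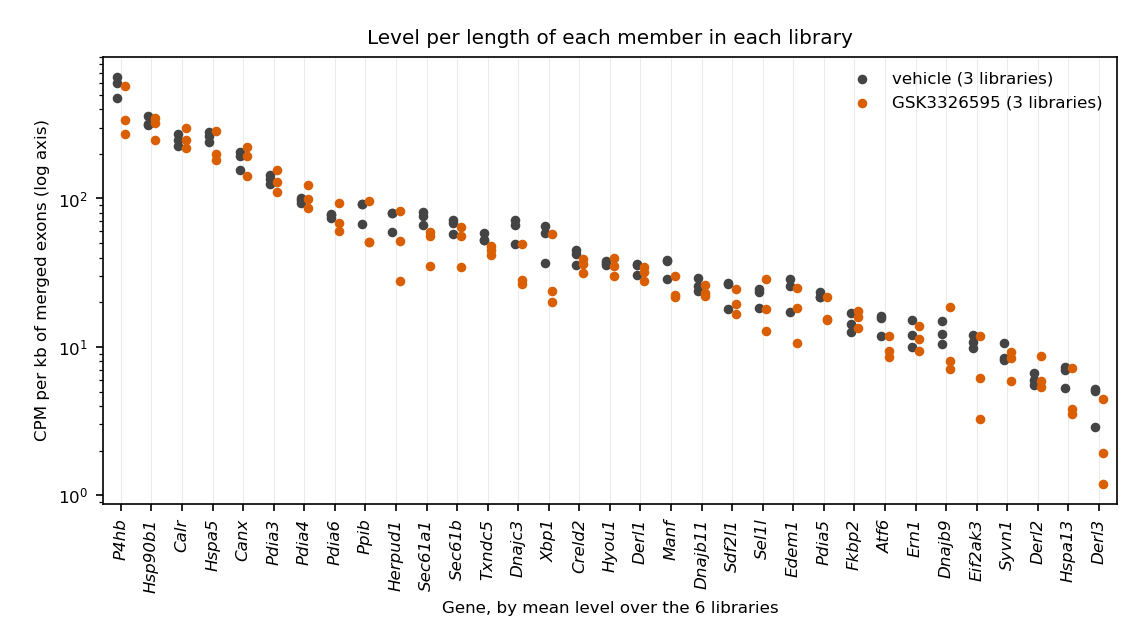
Each point is a library, with level in CPM per kb of merged exons on a log axis and genes ordered by their mean over the 6 libraries; vehicle is dark grey and GSK3326595 orange. P4hb leads and Derl3 is last, and 1 treated point, replicate 1, stands apart above the other two in Xbp1, Eif2ak3, Dnajb9 and Hspa13.

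The sensors and Xbp1 had a median log2 difference of -0.58 over 4 genes, all below 0. This median was -0.94 without GSK3326595 replicate 1 and -0.29 without replicate 2. Atf6 (chromosome 1, 170704674 to 170867771, minus strand) had 148.2, 143.7 and 108.6 CPM in vehicle and 109.1, 87.3 and 79.4 CPM in GSK3326595. Its groups met at vehicle replicate 3 and GSK3326595 replicate 1. Atf6 differed by -0.54 on the log2 scale (95% interval -1.02 to -0.05; edgeR adjusted p = 0.524), 1 of the 3 members with an unadjusted p under 0.05.

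Eif2ak3 (PERK) had 65.5, 72.2 and 59.5 CPM in vehicle and 71.3, 19.6 and 37.3 CPM in GSK3326595. GSK3326595 replicate 1 thus stood among the vehicle libraries and the other two below all of them. Eif2ak3 differed by -0.62 (95% interval -1.66 to 0.42; edgeR adjusted p = 0.706). Xbp1, whose spliced mRNA encodes the active factor, had 189.8, 211.1 and 118.5 CPM in vehicle and 188.1, 65.1 and 77.7 CPM in GSK3326595. It followed the same order of treated libraries as Eif2ak3, with replicate 1 in the vehicle range. Its log2 difference was -0.65 (95% interval -1.71 to 0.41; edgeR adjusted p = 0.697), and counts per gene do not separate spliced from unspliced Xbp1. Ern1, the enzyme that splices it, had 97.9, 123.7 and 82.2 CPM in vehicle and 113.8, 91.7 and 76.4 CPM in GSK3326595. Its groups overlapped widely (log2 difference -0.11; 95% interval -0.65 to 0.44; edgeR adjusted p = 0.934).

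The J-domain proteins and other Hspa5 cofactors were all below 0, with a median log2 difference of -0.20 over 4 genes. Dnajc3 (p58IPK; chromosome 14, 118937976 to 118981697, plus strand), a co-chaperone of Hspa5, had the largest difference of all members. It had 366.3, 341.9 and 255.1 CPM in vehicle and 252.7, 136.2 and 145.9 CPM in GSK3326595. The groups did not overlap, though vehicle replicate 3 and GSK3326595 replicate 1 nearly met. The log2 difference was -0.85 (95% interval -1.55 to -0.15; edgeR adjusted p = 0.522). Dnajb9 (ERdj4), a cofactor that restrains Ern1, had 31.3, 38.1 and 26.6 CPM in vehicle and 47.2, 20.4 and 17.97 CPM in GSK3326595, so that the treated libraries lay on both sides of the vehicle range. Its log2 difference was -0.17, and it was -0.74 without GSK3326595 replicate 1. Dnajb11 (ERdj3) and Sdf2l1, which work together with Hspa5 on unfolded clients, differed by -0.13 and -0.24 on the log2 scale, with overlapping groups.

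Manf (chromosome 9, 106838312 to 106891979, minus strand), a small protein of the ER that binds Hspa5 and is secreted under stress, had 135.2, 132.9 and 101.6 CPM in vehicle and 106.4, 76.5 and 79.2 CPM in GSK3326595. GSK3326595 replicate 1 lay just above vehicle replicate 3. The log2 difference was -0.50 (95% interval -0.99 to -0.0036; edgeR adjusted p = 0.538). Its annotated exons share 14 bases with Rbm15b on its own strand and up to 166 bases with a gene on the other, and the strand setting of the counting is not stated. Dnajc3, Atf6 and Manf all lost an unadjusted p under 0.05 without vehicle replicate 1, vehicle replicate 2, GSK3326595 replicate 2 or GSK3326595 replicate 3, each of which leaves 5 libraries, and the count of such members was then 0, 0, 1 (Herpud1) and 0. The share of all genes in those fits is not set beside these counts, so they are not a result about the members.

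**Figure D3:**
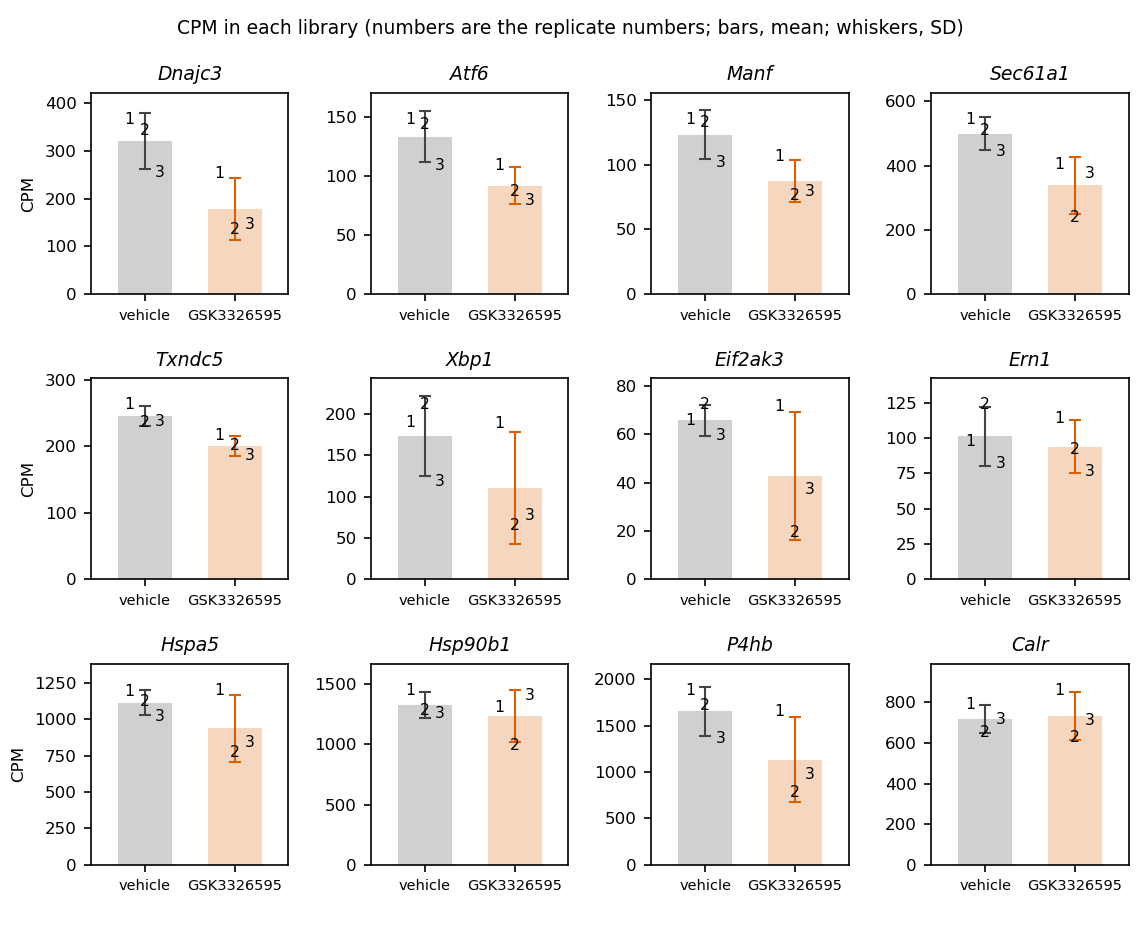
CPM of 12 members in each library, with each library drawn as its replicate number, bars at the group mean and whiskers of 1 SD (n = 3). In Xbp1, Eif2ak3 and P4hb the treated replicate 1 lies within the vehicle range and replicates 2 and 3 below it, while in Ern1 and Calr the groups overlap widely.

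The 4 luminal proteins of the Hsp70 and Hsp90 group, exchange factor included, had log2 differences between -0.43 and -0.07, all with intervals that include 0. Hspa5 (chromosome 2, 34771970 to 34777547, plus strand), the ER member of the Hsp70 family and the usual readout of the UPR, had 1192, 1124 and 1022 CPM in vehicle and 1200, 772.5 and 838.0 CPM in GSK3326595. Again replicate 1 of GSK3326595 was the highest of all and the other two were the lowest. Hspa5 differed by -0.25 on the log2 scale (95% interval -0.79 to 0.30; edgeR adjusted p = 0.782), and it was -0.47 without GSK3326595 replicate 1 and -0.08 without replicate 2. Hsp90b1, the ER member of the Hsp90 family, had 1452, 1280 and 1256 CPM in vehicle and 1309, 992.8 and 1406 CPM in GSK3326595, with a single low library, replicate 2 (log2 difference -0.10; 95% interval -0.60 to 0.39; edgeR adjusted p = 0.929). Hyou1, an exchange factor for Hspa5, differed by -0.07, and Hspa13, a small Hsp70 relative, by -0.43, both with overlapping groups. Hsp90b1 shares up to 133 exon bases with annotated genes on its own strand and 415 with one on the other, and Ppib, Sec61a1 and Eif2ak3 share 825, 549 and 485 with a gene on the other strand.

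The lectin chaperones lay close to vehicle on average. Calr, which binds glycoproteins in the lumen, had 787.4, 651.7 and 715.1 CPM in vehicle and 860.0, 628.7 and 711.5 CPM in GSK3326595. Its log2 difference was 0.03 (95% interval -0.44 to 0.50). Canx, its membrane-bound counterpart, had 901.3, 731.4 and 966.9 CPM in vehicle and 909.9, 665.3 and 1042 CPM in GSK3326595 (log2 difference 0.01; 95% interval -0.55 to 0.57). In both genes GSK3326595 replicate 2 held the lowest value.

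Of 7 disulfide isomerases 6 lay below 0, with a median of -0.20, and they split by gene. P4hb had 1883, 1720 and 1365 CPM in vehicle and 1650, 779.9 and 972.5 CPM in GSK3326595. The treated replicates 2 and 3 were below all vehicle libraries and replicate 1 within them (log2 difference -0.55; 95% interval -1.31 to 0.22; edgeR adjusted p = 0.644). Txndc5 (ERp46) had 262.7, 236.6 and 237.0 CPM in vehicle and 216.1, 200.9 and 186.4 CPM in GSK3326595. Its groups did not overlap, at a log2 difference of -0.29 (95% interval -0.66 to 0.08; edgeR adjusted p = 0.621). Pdia5 and Creld2 differed by -0.36 and -0.20, and the abundant Pdia3 (ERp57), Pdia4 (ERp72) and Pdia6 (P5) by -0.03, 0.07 and -0.05. Pdia3, the partner of Calr and Canx in glycoprotein folding, thus stayed as near to 0 as they did. Of the prolyl isomerases, Ppib (cyclophilin B) differed by -0.35 and Fkbp2 by 0.10, with overlapping groups.

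**Figure D4:**
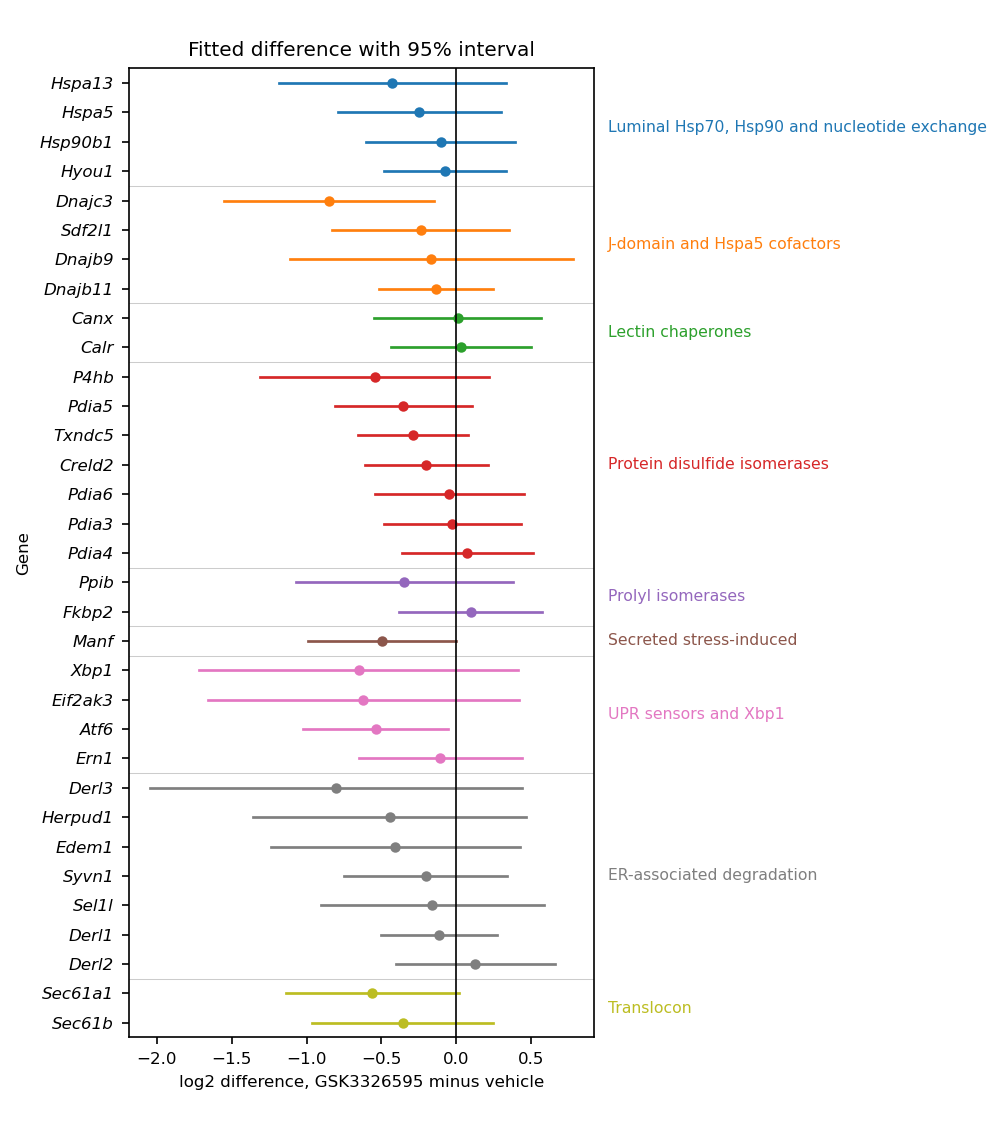
Points are edgeR's log2 differences, GSK3326595 minus vehicle, and lines their 95% intervals, with genes grouped and coloured by role. Of the 33 intervals 30 include 0, and those of Dnajc3, Atf6 and Manf end below it, that of Manf at -0.0036.

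Sec61a1, the pore subunit of the translocon, had 544.7, 509.8 and 444.9 CPM in vehicle and 403.1, 237.7 and 375.6 CPM in GSK3326595. Its groups did not overlap, and here replicate 1 of GSK3326595 was also below every vehicle library. The log2 difference was -0.56 (95% interval -1.14 to 0.02; edgeR adjusted p = 0.549). Sec61b, a small subunit of the same channel, had 90.7, 73.7 and 86.4 CPM in vehicle and 81.4, 43.6 and 70.7 CPM in GSK3326595 (log2 difference -0.36; 95% interval -0.96 to 0.25). Both had their lowest value in GSK3326595 replicate 2.

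The 7 genes of ER-associated degradation had a median of -0.20, with 6 below 0, and most were lowest in GSK3326595 replicate 3. Their median was -0.02 without that library, -0.08 without vehicle replicate 2 and -0.42 without GSK3326595 replicate 1. Herpud1, which recruits the degradation complex and is induced by the UPR, had 186.1, 186.6 and 139.6 CPM in vehicle and 119.8, 191.3 and 65.0 CPM in GSK3326595. GSK3326595 replicate 2, the lowest library for most chaperones, was the highest here, and replicate 3 the lowest. The log2 difference was -0.45 (95% interval -1.36 to 0.47; edgeR adjusted p = 0.764). Edem1, a lectin that extracts misfolded glycoproteins, differed by -0.41, Sel1l and Syvn1 (HRD1), the core of the ubiquitin ligase, by -0.16 and -0.20, and Derl1 and Derl2, parts of the exit channel, by -0.12 and 0.13. Derl3 had 10.1, 10.4 and 5.76 CPM in vehicle and 8.83, 2.39 and 3.82 CPM in GSK3326595, a log2 difference of -0.80 with a wide interval (-2.05 to 0.44). In this group 6 of 7 genes, all but Derl3, were lowest in GSK3326595 replicate 3.

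Genes around these members, taken from lists of related pathways, mostly lay lower too, and none passed edgeR's adjusted threshold. These lists were chosen with earlier results of these data known, so they are no independent support. Over all genes tested, 46.9% lay below 0. The Atf4 and CHOP arm of the UPR had 10 of 14 genes below 0 (median -0.29). Of these, 4 had an unadjusted p under 0.05, all lower, where 3.81% of all genes tested were lower at that p and 5.45% higher. Ddit4, an inhibitor of mTORC1, had 64.0, 107.3 and 20.6 CPM in vehicle and 14.9, 19.2 and 18.8 CPM in GSK3326595 (log2 difference -1.86; 95% interval -3.17 to -0.55). Psat1, of serine synthesis, had 783.6, 597.4 and 523.7 CPM in vehicle and 331.2, 219.4 and 428.4 CPM in GSK3326595 (-0.96; edgeR adjusted p = 0.499). Trib3 differed by -1.99 and Ppp1r15a (GADD34) by -1.17. In Ddit4, Trib3 and Ppp1r15a, vehicle replicate 3 was near the treated libraries. Atf4 itself differed by -0.47, and Ddit3 (CHOP), the factor that marks prolonged ER stress, by 0.01; its mean was 7.51 ± 1.11 CPM under vehicle and 7.57 ± 3.17 CPM under the inhibitor (SD, n = 3).

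The machinery that brings proteins into the ER and carries them out lay lower in most genes. Among 28 genes of translocation, signal peptidase and the oligosaccharyltransferase 25 were below 0 (median -0.27). The groups did not overlap in 4 of them, all lower, against 7.66% of all genes lower and 6.72% higher. Srpr, the receptor for the signal recognition particle, had 241.9, 250.2 and 172.2 CPM in vehicle and 167.0, 142.8 and 110.0 CPM in GSK3326595 (log2 difference -0.66). Srp72, Ssr4 and Spcs3 differed by -0.37, -0.51 and -0.52. Among 27 genes of ER-to-Golgi transport 24 were below 0 (median -0.28), and the groups did not overlap in 7, all lower, beside the same 7.66% and 6.72% of all genes. Sec24d, a cargo-binding subunit of the COPII coat, had 158.8, 155.5 and 116.1 CPM in vehicle and 104.2, 49.9 and 51.1 CPM in GSK3326595 (-1.07; edgeR adjusted p = 0.503). Copb1 and Copa, subunits of the COPI coat, differed by -0.43 each, and Kdelr3, a receptor that returns chaperones to the ER, by -0.91 at a low level.

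Other quality control and degradation genes had 18 of 22 below 0 with a median of -0.16, led by Vimp (now Selenos; -0.55), and then Fam8a1 (-0.28), Erlec1 (-0.37) and Ube2g2 (-0.24). Other folding enzymes were mixed, with 13 of 22 tested genes below 0 (median -0.10). There Txndc11 differed by -0.51 and Qsox1 by -1.59, while Gpx8 and Ppic, both at low levels, differed by 1.28 and 0.84. The groups overlapped in Qsox1, with 162.7, 254.5 and 37.9 CPM in vehicle and 33.9, 101.9 and 15.3 CPM in GSK3326595 (95% interval -3.65 to 0.47). Heat shock proteins outside the ER, cytosolic except for the mitochondrial Hspd1 and Hspe1, lay above 0 in 10 of 13 genes (median 0.29; 0.10 without GSK3326595 replicate 3 and 0.17 without vehicle replicate 2), with Hsph1 at 0.72, Hspa1a at 1.70, Hspa1b at 1.59 and Dnaja1 at 0.56. Hspd1 was at 0.16 and Hspe1 at 0.29, the median itself. The groups overlapped in every gene of this list, and none had an unadjusted p under 0.05 in edgeR's test. The mean log2 CPM of the list was 6.62, 6.71 and 7.48 in vehicle and 7.36, 7.43 and 7.35 in GSK3326595. Vehicle replicate 3 thus lay above every treated library. Hspa1a had 1.56, 3.88 and 10.4 CPM in vehicle and 31.2, 16.9 and 3.43 CPM in GSK3326595. In Hspa1a and Hspa1b, GSK3326595 replicate 3 lay within the vehicle range. The inducible pair Hspa1a and Hspa1b is nearly identical in sequence, so reads may be split between them. The difference between the ER genes and this list was not tested.

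**Figure D5:**
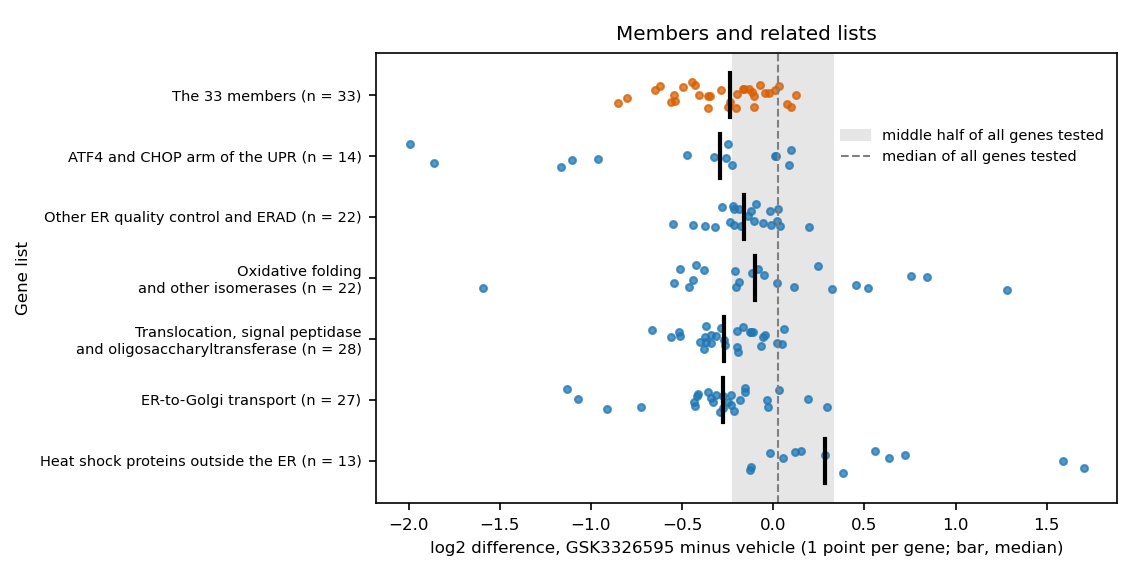
Each point is a gene's log2 difference, GSK3326595 minus vehicle, with a black bar at the median of each list; the grey band runs between the quartiles of all genes tested and the dashed line is their median, 0.03. The members, the Atf4 and CHOP arm and the lists of ER folding, quality control, translocation and transport have medians between -0.10 and -0.29. The heat shock proteins outside the ER have 0.29, with groups that overlap in every gene.

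Marker levels of other cell types also differed between the groups. Of 7 plasma cell markers tested (9 listed), cells whose ER is rich in these chaperones, 6 lay higher in GSK3326595; the summed level of the list was 52.0 to 58.1 CPM in vehicle and 83.7 to 117.4 CPM in GSK3326595, most of it Sdc1, which epithelium also makes, and Tnfrsf17 was at 0 in all libraries. T cell markers summed to 3.88 to 6.77 CPM in vehicle and 10.8 to 26.7 CPM in GSK3326595, with 5 of 5 tested markers higher (8 listed). Most of this sum was Cd4, at 2.80 to 5.34 CPM in vehicle and 7.83 to 18.6 CPM in GSK3326595. The other T cell markers were at 2.51 CPM or less in every library. Markers of stellate cells and fibroblasts summed to 136.2 to 563.5 CPM in vehicle and 588.8 to 803.7 CPM in GSK3326595, with 8 of 9 higher. Hepatocyte markers were lower in 7 of 10 (median -0.52), and their lowest sum was in GSK3326595 replicate 3. Macrophage (6 of 8 higher), endothelial (5 of 8) and cholangiocyte markers (3 of 4 tested, 6 listed) had sums that overlapped between the groups: 240.0 to 350.9 against 295.5 to 743.2 CPM, 98.4 to 170.5 against 117.0 to 244.1 CPM, and 11.2 to 26.2 against 13.1 to 63.7 CPM. The part of these shifts in the ER genes was not tested. Markers of the pancreatic acinar cell, another ER-rich cell, summed to at most 0.209 CPM in any library, and 5 of 9 were at 0 in all of them.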

How the data were processed

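RNA of liver tumors was sequenced with a stranded kit for total RNA, per the labels' protocols. The authors deposited expected counts per gene, with no scaling; RSEM, STAR, cutadapt and Picard (no versions) and the build mm10 appear, per the submitters' processing notes. The sources used here give neither annotation release nor strand setting. Counts were rounded, 12.3% of them being other than whole (tolerance 0).

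The 33 members and all lists were chosen with earlier results of these data known. The comparison was GSK3326595 against vehicle, 3 libraries each, over all genes: filterByExpr (minimum count 10), TMM, and edgeR 4.0.16 two-sided quasi-likelihood tests (R 4.3.3), adjusted over 17012 genes by Benjamini-Hochberg. The 95% intervals take the SE from F and the fit's degrees of freedom. CPM are TMM-scaled. Levels per length divide CPM by merged exon length in GENCODE M21 (same build), where 47224 genes matched and 419 did not. DESeq2 1.42.0 and limma 3.58.1 (voom) were alternatives; all 3 tests were tested on simulated counts. Named were all members, with full values for those of unadjusted p under 0.05, the sensors, Xbp1, Hspa5, Hsp90b1 and the extremes of level, plus up to 4 genes of smallest p per pathway list; values of other genes were chosen after they were seen. Promoter windows came from RefSeq (GRCm38.p6). Expected counts give no interval beyond the spread between libraries.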

Additional observations from a re-analysis of the deposited data

How the results depend on the processing

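The 3 libraries a group, with a common biological coefficient of variation of 0.409, limit the precision: 23 of the 33 intervals include a fall and 3 a rise of over 1.5-fold. No member passed the adjusted threshold under any setting, at 0.1 in place of 0.05 or without any library. The median of the members stayed below 0 in every setting: it was -0.14 with total counts only, where the median of all genes moved to 0.12, and -0.42 to -0.12 without each library. The 3 members at an unadjusted p under 0.05 became 1 with total counts only (Dnajc3), 2 without Manf under DESeq2 size factors, upper quartile scaling, no filter, 1 CPM or more in 3 libraries and the DESeq2 test, 4 with Sec61a1 by limma-voom, and 0 to 12 without each library. The 3 members whose groups did not overlap became 2 to 19 without each library, with fewer libraries to overlap: 11 without vehicle replicate 3 and 19 when GSK3326595 replicate 1 was left out. With fewer libraries, groups of any gene separate more easily. The share of all genes is not set here beside these counts or beside those at an unadjusted p under 0.05. Neither kind of count is a result about the members. The medians of other lists also moved without each library: from -0.32 to -0.0047 for the luminal chaperones, -0.47 to -0.09 for the Hspa5 cofactors, -0.27 to -0.10 for the disulfide isomerases, -0.50 to -0.24 for the Atf4 and CHOP arm, -0.36 to -0.09 for translocation and -0.44 to -0.17 for ER-to-Golgi transport. The cause was not tested.

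Whether the replicate numbers pair the libraries could not be settled. Same-numbered deviations correlated at -0.07, 0.07 and 0.32, and differently numbered ones at -0.43 to 0.32. With 3 libraries a group, deviations from the group mean constrain one another, so these correlations cannot exclude pairing. With the replicate block the median of the members was -0.27, the 3 at an unadjusted p under 0.05 were again Atf6, Dnajc3 and Manf, and Canx turned to -0.0052.

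Small differences changed sign. Pdia3 was 0.0091 with upper quartile scaling, 0.066 with total counts only, 0.0036 with no filter and 0.024 at 1 CPM or more in 3 libraries. With total counts only Hyou1 was 0.018 and Pdia6 0.042, at 1 CPM or more in 3 libraries Pdia6 was 0.00057, and by limma-voom Canx was -0.0042. Without each library Calr ran from -0.10 to 0.18, Canx from -0.12 to 0.22, Derl2 from -0.11 to 0.28, Dnajb9 from -0.74 to 0.10, Ern1 from -0.27 to 0.059, Hsp90b1 from -0.19 to 0.081, Hyou1 from -0.18 to 0.073, Pdia3 from -0.17 to 0.14, Pdia4 from -0.073 to 0.20, Pdia6 from -0.25 to 0.13 and Sel1l from -0.52 to 0.092. The other 22 members kept their direction in every setting.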
